A study of Mus musculus with 4 samples.

Results

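The expression of 9 nuclear receptor genes other than the master adipogenic regulator was examined in the 3T3-L1 line, mouse preadipocytes that fill with lipid when given adipogenic hormones. The genes were Thra, Rara, Rarg, Rxrb, Ppard, Esrra, Nr2f2, Nr2f6 and Nr4a1. Members were found by matching the RefSeq names of the deposited rows to these symbols, which gave 9 rows for 9 genes among 13110 rows and 13085 genes in all. There were 4 stable lines with 1 sample each. FLAG cells carried an empty FLAG vector and FLAG-CACUL1 cells carried FLAG-tagged CACUL1, and both had been selected with G418. The sh-Luc cells carried a hairpin against luciferase and the sh-CACUL1 cells a hairpin against CACUL1, and both had been selected with hygromycin B. Whether each line was 1 clone or a pool of resistant colonies is not given in the sources used here. All lines were started on insulin with dexamethasone, the phosphodiesterase inhibitor IBMX and the PPARγ agonist rosiglitazone (5 μM), were then kept on insulin, and were harvested at 8 days. CACUL1 is a corepressor-like protein that binds nuclear receptors, so the question here was how much mRNA of the other receptors each line contained.

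Nuclear receptors are transcription factors that share a zinc finger DNA-binding domain and, in most cases, a pocket for a small lipophilic ligand. Retinoic acid receptors, the thyroid hormone receptor and the PPARs bind DNA as partners of a retinoid X receptor. Orphan receptors such as the COUP-TFs, ERRα and NR4A1 act without a known hormone. In fat cells retinoic acid receptors restrain early adipogenesis, COUP-TFII (Nr2f2) is typical of the undifferentiated state, and ERRα drives mitochondrial genes.

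Levels are given in FPKM (fragment numbers scaled to transcript length and to library size), so genes can be compared with each other. Each difference is on the log2 scale of FPKM + 1, CACUL1 line relative to the control of the same vector type, and 2-fold is the cut-off used by the study. With 1 sample per line no difference between lines was tested, and no spread between cultures is known. Low FPKM values lie on steps of 1 fragment, and the step size gave about 14500000 fragments in FLAG and 14200000 in FLAG-CACUL1, while sh-Luc had 23900000 and sh-CACUL1 had 14900000. The 95% intervals below follow from these estimates and cover counting error only. The targeted gene, Cacul1, had 9.61 FPKM in FLAG and 11.8 in FLAG-CACUL1, while sh-Luc had 10.2 and sh-CACUL1 had 5.39.

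All 9 receptors were expressed in every line. Each had at least 1 FPKM in all 4 samples, as did 9563 genes in all, and the lowest value was 2.38 FPKM for Nr4a1 in FLAG-CACUL1. In FLAG the order was led by Rarg, and Rara and Thra did not differ beyond counting error. In FLAG-CACUL1 Rarg and Thra shared the top without a difference beyond counting error. Thra was, in both hairpin lines, the most abundant of the 9. Nr2f2 was lowest in FLAG, sh-Luc and sh-CACUL1, and Nr4a1 was lowest in FLAG-CACUL1. In sh-Luc the values of Esrra and Nr2f2 did not differ beyond counting error.

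**Figure D1:**
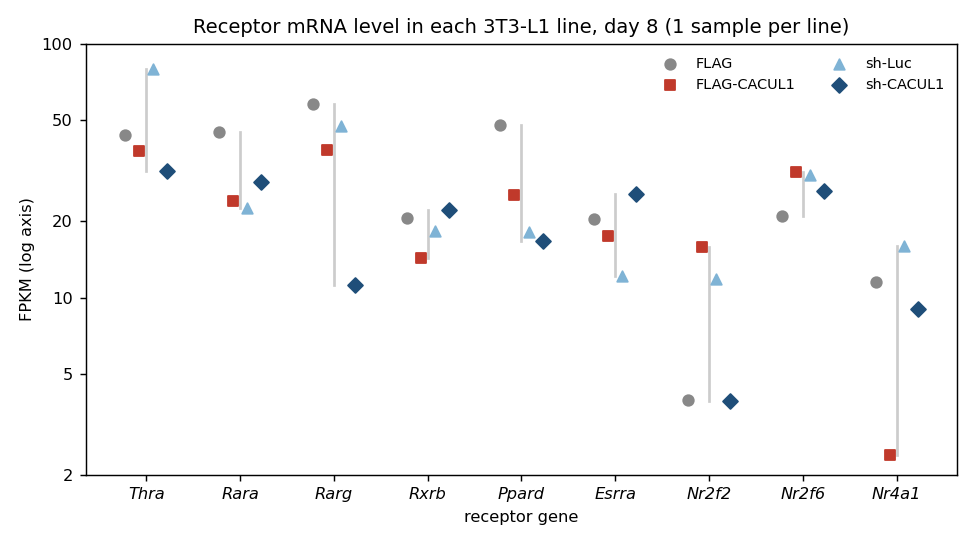
FPKM on a log axis for the 9 receptor genes, with 1 symbol for each of the 4 lines and a grey line from the lowest to the highest value. Rarg in sh-CACUL1 (11.2 FPKM) and Nr4a1 in FLAG-CACUL1 (2.38 FPKM) lie apart from the other lines, and Nr2f2 is low in FLAG and sh-CACUL1.

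At the 2-fold cut-off, 2 of the 9 receptors differed between FLAG-CACUL1 and FLAG, against 14.7% of all genes. Nr2f2 was higher, where 7.51% of all genes were, and Nr4a1 was lower, where 7.22% were. Between sh-CACUL1 and sh-Luc, 4 of the 9 differed, against 21.3% of all genes. Rarg, Nr2f2 and Thra were lower, where 16.4% of all genes were lower, and Esrra was higher, where 4.94% of all genes were higher. The median log2 difference of the 9 genes was -0.49 in FLAG-CACUL1, beside 0.09 for all genes. For sh-CACUL1 it was -0.20, beside -0.30 for all genes. Nr2f2 was the only one of the 9 past 2-fold in both comparisons, in opposite directions, where 4.71% of all genes went in opposite directions and 3.02% went as Nr2f2 did. None of the 9 passed 2-fold in the same direction in both, and 1.09% of all genes did. With the controls exchanged, Thra and Nr4a1 were lower in FLAG-CACUL1 than in sh-Luc and none of the 9 was higher, against 9.90% of all genes past 2-fold, 4.87% lower and 5.04% higher. Rarg and Ppard were lower in sh-CACUL1 than in FLAG and none was higher, against 22.9% of all genes, 15.4% lower and 7.45% higher. The controls differed from each other in 21.0% of all genes. Ppard was higher in FLAG than in sh-Luc, where 8.58% of all genes were, and Nr2f2 was lower, where 12.4% were. With so few members these counts describe the list and set nothing apart about it. The sh-CACUL1 values depend on the scaling between samples. Quantile normalization moved the median of all genes upward by 0.29 on the log2 scale and median-of-ratios scaling by 0.31, so changes in that comparison are best read against these shifts. As deposited, 23.2% of the genes past 2-fold in sh-CACUL1 were higher, and after these scalings 52.1% and 55.8% were.

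**Figure D2:**
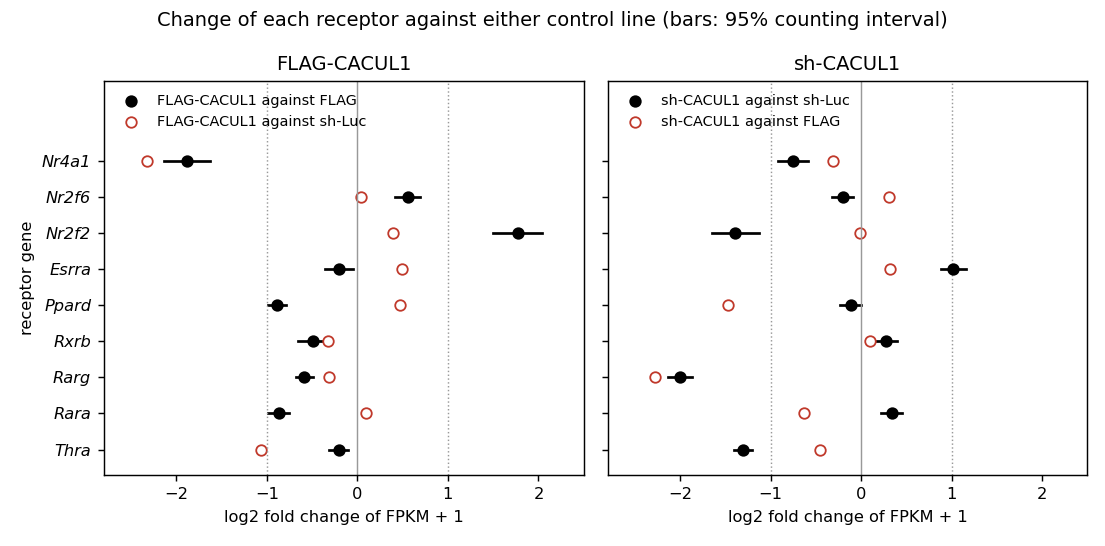
Log2 fold change of FPKM + 1 for each receptor in FLAG-CACUL1 (left) and sh-CACUL1 (right), against the control with the same vector (black, with 95% counting interval) and against the other control (open red); dotted lines mark 2-fold. Nr4a1 in FLAG-CACUL1 and Rarg in sh-CACUL1 pass 2-fold downward with either control, while Nr2f2 passes it only with the control of its own vector.

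The retinoic acid receptors were considered first. Rarg (NM_011244 and NM_001042727; chr15:102234938-102257517, minus strand, GRCm38) encodes RARγ, a receptor for all-trans retinoic acid. It had 57.8 FPKM in FLAG and 38.2 in FLAG-CACUL1, while sh-Luc had 47.6 and sh-CACUL1 had 11.2. The sh-CACUL1 line was thus the low one, and the other 3 lay between 38.2 and 57.8 FPKM. The log2 difference between sh-CACUL1 and sh-Luc was -2.00, with a counting interval from -2.13 to -1.87, and it was -2.28 against FLAG. After quantile normalization and median-of-ratios scaling it was -1.64 and -1.55, still past 2-fold. In FLAG-CACUL1 the difference from FLAG was -0.59, under 2-fold.

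Rara (NM_009024 and 3 further transcripts; chr11:98927818-98974942, plus strand) encodes RARα. It had 44.8 FPKM in FLAG and 24.1 in FLAG-CACUL1, while sh-Luc had 22.5 and sh-CACUL1 had 28.6. FLAG was the high line, and neither difference passed 2-fold, at -0.87 for FLAG-CACUL1 and 0.34 for sh-CACUL1. After median-of-ratios scaling the FLAG-CACUL1 value lay just past 2-fold. Rarb, the third receptor of the family, had at most 0.23 FPKM in any line.

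The ratio of both receptors within a sample is not altered by multiplying all values of that sample by 1 factor. Rarg was 1.29 times as abundant as Rara in FLAG, 1.58 times in FLAG-CACUL1 and 2.12 times in sh-Luc. In sh-CACUL1 the order turned, with a ratio of 0.39 and a counting interval from 0.349 to 0.435. The 3 receptors together gave 103 FPKM in FLAG and 62.3 in FLAG-CACUL1, while sh-Luc had 70.3 and sh-CACUL1 had 40.0, and RARγ mRNA made up 27.9% of this sum in sh-CACUL1 against 67.8% in sh-Luc.

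Rxrb (NM_011306 and 3 further transcripts; chr17:34031812-34038399, plus strand) encodes RXRβ, a shared partner of the hormone-binding receptors. Its level was among the steadiest of the 9, with 20.6 FPKM in FLAG and 14.3 in FLAG-CACUL1, while sh-Luc had 18.2 and sh-CACUL1 had 22.2. The log2 differences were -0.49 and 0.27. Its relative Rxra, which encodes the main RXR of fat cells, was 1.44 times as abundant in FLAG and 2.96 times in FLAG-CACUL1. The ratio was 1.92 in sh-Luc and 3.60 in sh-CACUL1, so Rxra was the larger in every line and RXRβ made up 21.5% to 40.8% of the RXR mRNA.

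Thra (NM_178060; chr11:98740638-98769006, plus strand) encodes the thyroid hormone receptor TRα. It had 43.7 FPKM in FLAG and 37.7 in FLAG-CACUL1, while sh-Luc had 79.7 and sh-CACUL1 had 31.7. Only sh-Luc stood out, on the high side. The difference between sh-CACUL1 and sh-Luc was -1.31, with a counting interval from -1.40 to -1.21. It was -1.03 after quantile normalization and -0.84 after median-of-ratios scaling, and with FLAG as the control it was -0.45, so the 2-fold call rests on the sh-Luc sample and on the scaling. In FLAG-CACUL1 the difference from FLAG was -0.21. Thrb, which encodes the other thyroid hormone receptor, had at most 0.23 FPKM. The exons of the Thra row shared no base with those of the neighbouring clock gene Nr1d1.

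Ppard (NM_011145; chr17:28232700-28301474, plus strand) encodes PPARδ, the PPAR that promotes fatty acid oxidation in many tissues. It had 47.8 FPKM in FLAG and 25.4 in FLAG-CACUL1, while sh-Luc had 18.1 and sh-CACUL1 had 16.6. Both FLAG lines were above both hairpin lines. FLAG-CACUL1 differed by -0.89 and sh-CACUL1 by -0.12, whose interval from -0.23 to 0.00 reached 0 and whose sign turned to 0.30 after quantile normalization and 0.33 after median-of-ratios scaling. The controls differed by more, with FLAG higher than sh-Luc by 1.35 on the log2 scale, and vector, selection drug and line cannot be told apart in that comparison. After median-of-ratios scaling the FLAG-CACUL1 value was -1.02, past 2-fold. With sh-Luc as the control it was 0.466, of the other sign, with a counting interval from 0.36 to 0.572.

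The relation of Ppard to Pparg, the adipogenic PPAR, differed among the lines. Ppard was 0.681 times as abundant as Pparg in FLAG and 2.07 times in FLAG-CACUL1. It was 1.23 times as abundant in sh-Luc and 0.269 times in sh-CACUL1. PPARδ mRNA was thus the larger in FLAG-CACUL1 and sh-Luc and the smaller in FLAG and sh-CACUL1, and none of the 4 counting intervals reached a ratio of 1. Pparg itself had 70.1 FPKM in FLAG and 12.3 in FLAG-CACUL1, while sh-Luc had 14.8 and sh-CACUL1 had 61.8.

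**Figure D3:**
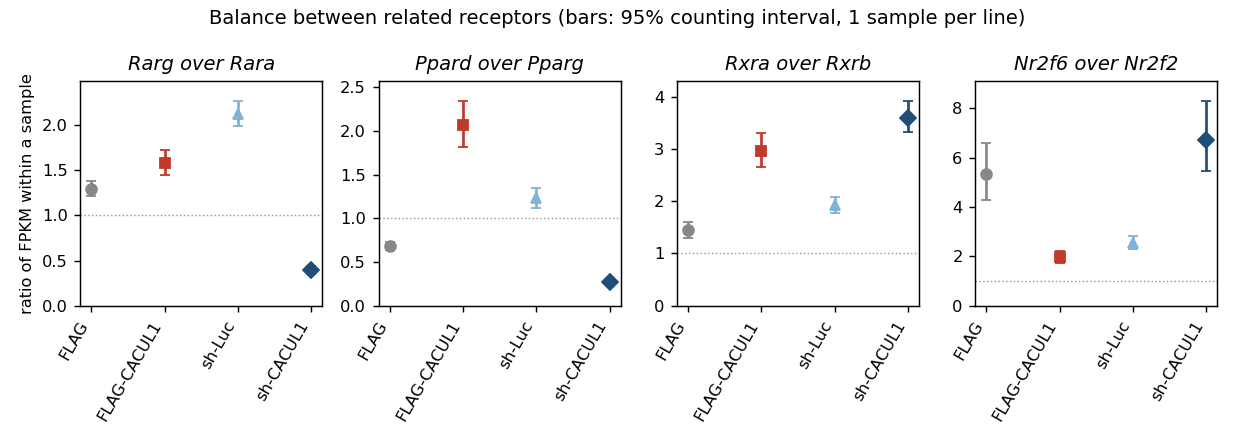
Ratio of FPKM between related receptors within each sample, with 95% counting intervals and a dotted line at equal abundance. Rarg over Rara falls under 1 in sh-CACUL1 (0.39), and Ppard over Pparg is above 1 in FLAG-CACUL1 (2.07) and sh-Luc (1.23).

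Esrra (NM_007953; chr19:6910977-6921813, minus strand) encodes ERRα, an orphan receptor that works with PGC1 coactivators on mitochondrial genes. It had 20.4 FPKM in FLAG and 17.6 in FLAG-CACUL1, while sh-Luc had 12.2 and sh-CACUL1 had 25.6. The sh-Luc line was the lowest and sh-CACUL1 the highest. Between them the difference was 1.02, with an interval from 0.88 to 1.16 that includes 2-fold. It was 1.48 after quantile normalization and 1.46 after median-of-ratios scaling, but 0.32 with FLAG as the control. In FLAG-CACUL1 the difference was -0.20, and with sh-Luc as the control it was 0.496, of the other sign. The exons of its row shared 73 bases with Trmt112 on the other strand, or 3.26% of their length.

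Of the COUP-TFs, orphan receptors that mostly repress, Nr2f2 (NM_183261 and NM_009697; chr7:70351944-70366735, minus strand) encodes COUP-TFII. It had 3.94 FPKM in FLAG and 15.9 in FLAG-CACUL1, while sh-Luc had 11.9 and sh-CACUL1 had 3.92. FLAG and sh-CACUL1 were nearly equal and low, and FLAG-CACUL1 and sh-Luc were high. The difference was 1.77 in FLAG-CACUL1, with a counting interval up to 2.04, and -1.39 in sh-CACUL1, with an interval from -1.65 to -1.13. In sh-CACUL1 it was -0.93 after quantile normalization and -0.98 after median-of-ratios scaling, both under 2-fold. With the controls exchanged the differences were 0.39 and -0.01. The controls themselves differed by -1.38 between FLAG and sh-Luc. The row shared 643 exon bases with B130024G19Rik on the other strand, which had at most 1.70 FPKM, and the strand setting of the counting is not given in the sources used here.

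Nr2f1, which encodes the close relative COUP-TFI, had 2.17 FPKM in FLAG and 6.26 in FLAG-CACUL1, while sh-Luc had 7.41 and sh-CACUL1 had 4.19. It was also higher in FLAG-CACUL1 than in FLAG, by 1.19, and its value in sh-CACUL1 was -0.70, under 2-fold. With the controls exchanged Nr2f1 had -0.213 and 0.712, so both signs turned. Nr2f6 (NM_010150; chr8:71374123-71381960, minus strand) encodes EAR2, a further receptor of this group. It had 21.0 FPKM in FLAG and 31.3 in FLAG-CACUL1, while sh-Luc had 30.4 and sh-CACUL1 had 26.3. This was the narrowest range of the 9, with a highest value 1.49 times the lowest. FLAG-CACUL1 differed from FLAG by 0.55, and sh-CACUL1 from sh-Luc by -0.20. The latter value turned to 0.17 after quantile normalization and 0.26 after median-of-ratios scaling, and to 0.312 with FLAG as the control. Nr2f6 was more abundant than Nr2f2 in every line, by 5.33 times in FLAG and 1.97 times in FLAG-CACUL1, while sh-Luc had 2.56 and sh-CACUL1 had 6.71. The exons of its row shared 914 bases, or 41.2%, with Ocel1 on the other strand, which had 5.53 to 9.44 FPKM, so the Nr2f6 values may hold Ocel1 reads if strand was not used.

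Nr4a1 (NM_010444; chr15:101254269-101274795, plus strand) encodes NUR77, an immediate early receptor that hormones and cAMP induce within a short time. It had 11.5 FPKM in FLAG and 2.38 in FLAG-CACUL1, while sh-Luc had 15.9 and sh-CACUL1 had 9.05. FLAG-CACUL1 was the low line, and its value rests on about 84 fragments. The difference from FLAG was -1.89, with an interval from -2.14 to -1.63, and that from sh-Luc was -2.32. It was -1.95 after quantile normalization and -2.00 after median-of-ratios scaling. In sh-CACUL1 the difference was -0.75, in the same direction as in FLAG-CACUL1 and under 2-fold. Its highest value was 6.69 times its lowest, the widest range of the 9. Nr4a2 had at most 1.90 FPKM, and Nr4a3 was not analysed here.

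Promoter windows of 250 bases before and 50 after a start site were in RefSeq (GRCm38.p6) for 8 of the 9 genes. The windows of 4 receptors past 2-fold are shown so that the sequence can be set beside the values. Capitals mark every match, on either strand, to AGGTCA (the core of nuclear receptor sites), TGACG (the core of the cAMP response element), CCAAT (the CCAAT box), GGGCGG (the GC box) or TATAAA (the TATA box). They lie at chr15:101266596-101266895 for Nr4a1, chr7:70366697-70366996 for Nr2f2, chr15:102257473-102257772 for the upstream start of Rarg and chr19:6921759-6922058 for Esrra, each on the strand of its gene.
Nr4a1: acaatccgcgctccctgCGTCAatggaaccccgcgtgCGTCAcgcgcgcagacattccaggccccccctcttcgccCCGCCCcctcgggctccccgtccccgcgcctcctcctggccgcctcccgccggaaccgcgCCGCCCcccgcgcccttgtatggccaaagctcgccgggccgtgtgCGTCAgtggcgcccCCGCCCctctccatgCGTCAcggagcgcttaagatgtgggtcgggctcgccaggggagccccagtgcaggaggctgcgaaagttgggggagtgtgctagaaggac
Nr2f2: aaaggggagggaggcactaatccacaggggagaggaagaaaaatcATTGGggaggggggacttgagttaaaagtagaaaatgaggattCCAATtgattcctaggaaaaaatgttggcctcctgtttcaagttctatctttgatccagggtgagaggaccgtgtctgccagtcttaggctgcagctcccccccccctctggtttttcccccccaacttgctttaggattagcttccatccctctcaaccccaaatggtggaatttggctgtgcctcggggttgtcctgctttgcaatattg
Rarg: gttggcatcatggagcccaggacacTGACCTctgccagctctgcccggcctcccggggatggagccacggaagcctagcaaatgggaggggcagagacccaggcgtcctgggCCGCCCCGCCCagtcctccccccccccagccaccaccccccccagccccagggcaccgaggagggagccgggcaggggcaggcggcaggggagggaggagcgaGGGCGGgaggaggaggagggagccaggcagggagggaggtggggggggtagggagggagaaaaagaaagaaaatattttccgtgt
Esrra: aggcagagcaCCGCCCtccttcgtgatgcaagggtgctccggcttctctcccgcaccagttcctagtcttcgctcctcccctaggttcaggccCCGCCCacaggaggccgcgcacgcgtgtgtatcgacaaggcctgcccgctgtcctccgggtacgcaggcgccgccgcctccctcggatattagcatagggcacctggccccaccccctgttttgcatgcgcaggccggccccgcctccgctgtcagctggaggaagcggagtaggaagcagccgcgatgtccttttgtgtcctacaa

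The Nr4a1 window held 4 matches to TGACG, at positions -233, -213, -69 and -40 from the start site, and 3 to GGGCGG. A match to TGACG occurs in 20.8% of 32851 promoter windows, and 0.231% have as many as 4. The Nr2f2 window had 2 matches to CCAAT, and 11.7% of windows have at least 2, and none to the other 4 motifs. The upstream Rarg window held 1 match to AGGTCA, at -225, a hexamer found in 16.3% of windows, and 3 to GGGCGG. A downstream Rarg window (chr15:102246451-102246750), not shown, held no match to any of the motifs. The Esrra window held 2 matches to GGGCGG, which 19.5% of windows reach. A match is a description of the sequence and not a bound site.

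The rest of the superfamily gives the setting. Of 49 nuclear receptor genes, 29 had a row and 20 were not analysed here, and the 9 receptors made up 52.8% of the summed receptor FPKM in FLAG and 54.0% in FLAG-CACUL1, while sh-Luc had 62.9% and sh-CACUL1 had 39.9%. Among the 20 other receptors with a row, 2 were higher and 3 lower past 2-fold in FLAG-CACUL1, beside 7.51% and 7.22% of all genes. In sh-CACUL1 5 were higher and 4 lower, beside 4.94% and 16.4% of all genes. Receptors past 2-fold in both comparisons included, beside Nr2f2, Pparg and Nr1h3. Pparg had log2 differences of -2.42 and 2.00, and Nr1h3, which encodes the oxysterol receptor LXRα, had -1.62 and 4.41. With the controls exchanged Pparg had -0.246 and -0.179, both under 2-fold. Nr1h3 then had 1.309 and 1.476, so its sign in FLAG-CACUL1 turned. Nr1h3 had 14.5 FPKM in FLAG and 4.04 in FLAG-CACUL1, while sh-Luc had 1.03 and sh-CACUL1 had 42.2. Vdr, the vitamin D receptor gene, was named after its values were seen. Against the control of the same vector it went the other way, as Nr2f2 did, with 1.01 and -1.96. Vdr had 2.29 FPKM in FLAG and 5.63 in FLAG-CACUL1, while sh-Luc had 12.3 and sh-CACUL1 had 2.42. With the controls exchanged its differences were -1.002 and 0.055, so its direction depended on the control.

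**Figure D4:**
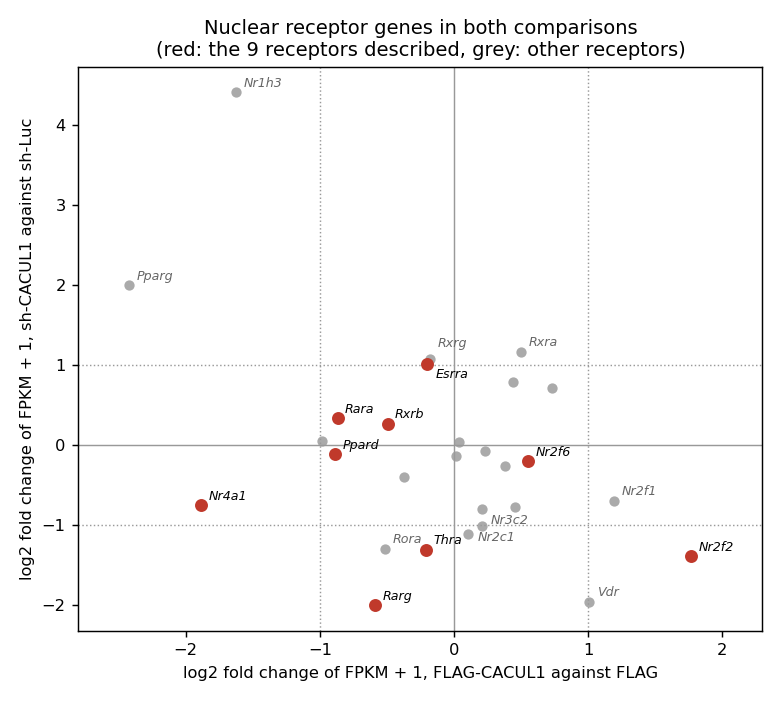
Log2 fold change of FPKM + 1 in FLAG-CACUL1 (horizontal) and in sh-CACUL1 (vertical), each against the control with its own vector, for nuclear receptor genes with a row, 1 of them not drawn; the 9 described are red and dotted lines mark 2-fold. Nr2f2 lies at the lower right with Vdr, opposite to Pparg and Nr1h3. Of the red points Nr4a1, Rarg, Thra and Ppard are below 0 in both.

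Genes that supply ligands to these receptors or are known to respond to them were read from lists drawn up for each receptor. Of 9 retinoid genes with a row, 1 was higher and 4 lower past 2-fold in FLAG-CACUL1. In sh-CACUL1 3 were higher and 1 lower. Of all genes 7.51% were higher and 7.22% lower in FLAG-CACUL1, and 4.94% were higher and 16.4% lower in sh-CACUL1. The counts of all lists and markers below are to be read beside these shares, and those in sh-CACUL1 depend on the scaling. The median differences of the retinoid genes were -0.07 and 0.04. Rdh10, which makes retinal, had 1.56 FPKM in FLAG and 5.68 in FLAG-CACUL1, while sh-Luc had 17.4 and sh-CACUL1 had 3.89. Dhrs3, which turns retinal back to retinol, went the opposite way with 33.8, 11.0, 8.66 and 48.1 FPKM in the same order of lines. Fabp5, a fatty acid carrier that can deliver retinoic acid to PPARδ, had 533, 188, 164 and 1180 FPKM. Cyp26b1, which degrades retinoic acid, had 7.89 FPKM in FLAG and at most 1.24 in the other lines.

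Of 9 genes that respond to PPARδ, most of which PPARγ also controls, 1 was higher and 2 lower in FLAG-CACUL1, and 4 were higher and 2 lower in sh-CACUL1. Angptl4, a secreted inhibitor of lipoprotein lipase, had 379 FPKM in FLAG and 53.5 in FLAG-CACUL1, while sh-Luc had 96.0 and sh-CACUL1 had 318. Acadvl, an enzyme of fatty acid oxidation, had log2 differences of -1.42 and 1.44. Cpt1a, which admits fatty acids to mitochondria, had 1.76 and -1.56, the opposite pattern. The list thus held both directions in each comparison. With the controls exchanged Acadvl had -0.82 and 0.844 and Cpt1a had 0.067 and 0.132, all under 2-fold. Angptl4 then had -0.832 and -0.254, also under 2-fold, and its sign in sh-CACUL1 turned.

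Of 11 genes of the ERRα and PGC1 list, 1 was higher and 3 lower in FLAG-CACUL1, and 3 were higher and 1 lower in sh-CACUL1. The medians were -0.74 and 0.65, beside 0.09 and -0.30 for all genes. Acadm, an ERRα target of fatty acid oxidation, had 55.5 FPKM in FLAG and 16.9 in FLAG-CACUL1, while sh-Luc had 81.1 and sh-CACUL1 had 313. Idh3a, a subunit of a TCA cycle enzyme, had differences of -1.71 and 1.42. Pprc1, a relative of PGC1, had 1.48 and -1.09. With the controls exchanged Idh3a had -0.785 and 0.494 and Pprc1 had -0.279 and 0.671, all under 2-fold. Acadm stayed past 2-fold, at -2.195 and 2.476. Ppargc1b, the coactivator PGC1β, had 6.11 FPKM in FLAG and 0.65 in FLAG-CACUL1, while sh-Luc had 1.34 and sh-CACUL1 had 2.67. Ppargc1a, the coactivator PGC1α, went the other way, with log2 differences of 0.721 and -0.996, both under 2-fold. Cs (0.146 and 0.174) and Atp5b (0.05 and -0.098) of the same list changed little.

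Of 5 thyroid hormone genes with a row, 1 was lower in FLAG-CACUL1 and 2 were higher in sh-CACUL1. Thrsp, a lipogenic gene induced by thyroid hormone, had 32.8 FPKM in FLAG and 0.86 in FLAG-CACUL1, while sh-Luc had 7.52 and sh-CACUL1 had 564. Klf9, another gene that responds to the hormone, was within 2-fold in both comparisons, at -0.85 and -0.49. Of 11 immediate early genes, FLAG-CACUL1 had 4 lower and sh-CACUL1 also 4, and none was higher in either. Jun, a subunit of AP-1, had -1.21 and -1.98, and Atf3, a stress-induced repressor, had -2.35 and -1.03. With the controls exchanged Jun had -0.455 and -2.736 and Atf3 had -0.338 and -3.049. In FLAG-CACUL1 both were then under 2-fold. Some genes of the list were higher in FLAG-CACUL1 than in FLAG, such as Egr1 (0.651) and Ier2 (0.636), though under 2-fold. Between FLAG and sh-Luc Egr1 differed by -4.03. Fos had 4.83 FPKM in FLAG and 0.59 in FLAG-CACUL1, and 3.15 in sh-Luc and 1.92 in sh-CACUL1.

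Markers of differentiation moved along with the lines. The 7 adipocyte markers with a row were all past 2-fold lower in FLAG-CACUL1 and all past 2-fold higher in sh-CACUL1. Their summed FPKM was 7410 in FLAG and 900 in FLAG-CACUL1, while sh-Luc had 1710 and sh-CACUL1 had 16700, so the controls differed as well. Fabp4 alone had 4991 FPKM in FLAG and 12543 in sh-CACUL1. Plin1 (158 and 113 FPKM) and Lpl (1143 and 1060 FPKM) were lower in sh-CACUL1 than in FLAG. Adipoq, Fabp4, Cidec, Cd36 and Retn were higher. Of 7 preadipocyte and fibroblast markers, 4 were higher and 1 lower in FLAG-CACUL1, and 2 were higher and 4 lower in sh-CACUL1. Their summed FPKM was 4850 in FLAG and 6990 in FLAG-CACUL1, while sh-Luc had 3150 and sh-CACUL1 had 632. Most of this sum came from the collagen genes Col1a1 and Col3a1. Col1a1 had 2412 FPKM in FLAG and 2424 in FLAG-CACUL1, and Col3a1 had 2157 and 3885. The members of this list did not share 1 pattern. Pdgfra, a preadipocyte surface receptor, had 13.0 FPKM in FLAG and 40.9 in FLAG-CACUL1, while sh-Luc had 84.9 and sh-CACUL1 had 24.2. Thy1 and Dlk1, by contrast, were lowest in sh-Luc, at 0.66 and 0.22 FPKM. The part of the differentiation state in the receptor values was not tested. In bulk RNA a lower share of cells with a transcript and less of it per cell cannot be told apart. Of other cell types, the macrophage gene Csf1r had at most 0.61 FPKM and the endothelial gene Pecam1 at most 0.30 FPKM. Lyz2 reached 66.5 FPKM in FLAG-CACUL1 and Cd68 16.2 FPKM in FLAG, and of 2 muscle genes with a row Acta1 had at most 0.68 FPKM. The other, Des, had 8.35 FPKM in FLAG and 5.94 in FLAG-CACUL1, while sh-Luc had 1.13 and sh-CACUL1 had 4.04, past 2-fold between sh-CACUL1 and sh-Luc and between the controls.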

How the data were processed

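RNA from 4 stable 3T3-L1 lines was sequenced and quantified by a company for the authors. The authors deposited FPKM values for 13110 rows named by RefSeq transcripts, and the submitters' notes name build mm10. Aligner, quantifier, strand setting and filters are not given in the sources used here. Rows were joined to symbols through GENCODE M21 (GRCm38) and summed per symbol. No symbol was found for 196 rows, while 8 rows had several.

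Differences are log2 ratios with a pseudocount of 1, and 2-fold is the cut-off. Depth was estimated from the spacing of FPKM multiplied by length using single-transcript rows from 3000 bases upward, where 72.7% to 78.0% of low values lay within 0.2 of a whole number of fragments. Fragment numbers of members used the shortest transcript of the row. Code was tested on simulated data.

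The members and lists were chosen with earlier results of these data known. Named were all members, at most 4 genes per list past 2-fold in both comparisons, markers, overlapping genes, Cacul1 and, for 3 members, the 3 genes of nearest profile. Some relatives and list genes below this rule were added after values were seen. Python 3.11.15, numpy 2.4.6, pandas 2.3.3 and matplotlib 3.10.9 were used. There were 10 alternatives. A gene that the rule also named is not reported here.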

Additional observations from a re-analysis of the deposited data

How the results depend on the processing

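The settings were compared by the number of genes past the cut-off, the members' median and each member's value. Past 2-fold in FLAG-CACUL1 were 3161 genes with a pseudocount of 0.1 and 3775 with none, and 663 passed 3-fold and 4494 passed 1.5-fold, against 1928 as reported. In sh-CACUL1 4799 passed with no pseudocount, 936 passed 3-fold and 5809 passed 1.5-fold, against 2788. Of the 9 receptors, 4 passed in FLAG-CACUL1 after median-of-ratios scaling and 5 at 1.5-fold, against 2. In sh-CACUL1 2 passed after median-of-ratios scaling, 2 with the other control and 1 at 3-fold, against 4. The members' median in FLAG-CACUL1 was 0.04 with the other control. In sh-CACUL1 it was 0.17 after quantile normalization and 0.26 after median-of-ratios scaling. The cause of these changes was not tested, apart from the cut-offs themselves. Of 144 member values under an alternative, 102 moved by less than the counting interval and 42 by more, and no value past 2-fold changed sign. The 102 include values that could not move, because each member had 1 row and at least 1 FPKM in every sample. These are the 18 values under each filter at 1 FPKM (in all samples or in any) and the 18 with the highest row. The other control moved all 18 member values beyond the counting interval. Some values under 2-fold changed sign with it. In FLAG-CACUL1 these were Rara (-0.867 to 0.097), Ppard (-0.886 to 0.466) and Esrra (-0.204 to 0.496). In sh-CACUL1 these were Rara (0.337 to -0.627) and Nr2f6 (-0.202 to 0.312). No paired analysis was possible because each line had 1 sample.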

Other observations

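The genes whose profile over the 4 samples lay nearest to the 3 receptors of widest range were listed, by the root mean square distance of log2(FPKM + 1) centred on each gene's mean, among 9562 other genes with at least 1 FPKM in every sample. Nearest to Nr4a1 were Per1, a clock gene that hormones induce quickly, Dusp1, an immediate early phosphatase gene, and Net1, at distances of 0.20, 0.29 and 0.30. Per1 had 23.4 FPKM in FLAG and 4.94 in FLAG-CACUL1, while sh-Luc had 22.1 and sh-CACUL1 had 13.8. Nearest to Rarg were Zyx, which encodes a focal adhesion protein, Fzd7, which encodes a Wnt receptor, and Glg1, at 0.09, 0.09 and 0.11. Zyx had 93.5, 71.7, 89.5 and 20.5 FPKM in these lines. Nearest to Nr2f2 were Ubqln2, Camkk2 and C1qtnf6, at 0.04, 0.08 and 0.09. Ubqln2 had 14.4, 48.4, 36.9 and 13.5 FPKM. Only 4 samples enter each distance, so many genes can come this near without any relation to the receptor.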
